A study of Homo sapiens with 6 samples.

Results

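The combined list, read from its name as covering all 3 HuR replicates, holds 658853 HuR sites. Of these, 72270 (11.0%) overlapped no site of any single replicate list. These absent sites were selected on the measured site positions: an interval of the combined list entered when it shared not even 1 nt, on the same strand, with any interval of the 3 replicate lists. The data come from HEK293, an established human embryonic kidney line. Digested lysate was divided over 3 immunoprecipitations with the anti-HuR antibody 3A2 and 3 negative controls with antibodies from normal mouse sera. The 3 replicate lists and the combined lists describe the HuR immunoprecipitations, while the controls are not analysed here. All immunoprecipitations drew on 1 pool of digested lysate, so an SD over the 3 replicates may cover technical spread only.

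HuR, encoded by ELAVL1, is a ubiquitous RNA-binding protein of the ELAV family. It binds U-rich and AU-rich stretches, most often in introns and 3′ untranslated regions, and is known for stabilising messenger RNAs and influencing their splicing and translation. In DO-RIP-seq, micrococcal nuclease trims RNA around bound protein, the protein is precipitated, and the protected fragments are sequenced. A site in these lists is a stretch of 1 strand of the hg19 genome with the authors' LOD score above 0. No source used here gives the scale of that score, so scores are compared within the combined list only.

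The replicate lists differed in size, from 186157 sites in replicate 1 to 405048 in replicate 2 and 550681 in replicate 3. Read depth per library is unknown. Sites of a list never touched each other, with at least 10 nt between neighbours, and every end lay on a 5-nt grid. The lists carry no gene names or levels, so neither genes nor the identity of the cells could be checked against them. Membership depends on the widths, scores and positions described below, since all lists are taken to come from the same reads. They are therefore given as descriptions, with no test.

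At the edge of the rule, the 133 absent sites that touched a replicate site end to end had a median width of 20 nt and a median LOD of 0.439, and the authors' p filter, described further on, kept 1 of them. The 225 combined sites whose largest overlap was 5 nt also had a median width of 20 nt, with a median LOD of 0.518, and 0 were kept. Further from the edge on each side the values differed more. The 1632 absent sites 5 or 10 nt from a replicate site had a median LOD of 2.12 and 6.92% were kept, while the 370 sites with a largest overlap of 10 nt had a median LOD of 0.506 and 1 was kept.

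Absent sites were the narrowest in the combined list. Their median width was 25 nt (quartiles 20 and 30 nt), against 40 nt for sites in 1 replicate list, 60 nt for sites in 2 and 85 nt for sites in 3. The narrowest possible interval, 15 nt, was also their most frequent width, with 16584 sites or 22.9%. A further 16024 were 20 nt wide and 15143 were 25 nt wide, so 66.1% were at most 25 nt. Only 82 of them (0.113%) reached 80 nt, and the widest had 150 nt. Together they covered 1.83 of the 41.6 Mb in the combined list, or 4.40% of its bases.

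**Figure D1:**
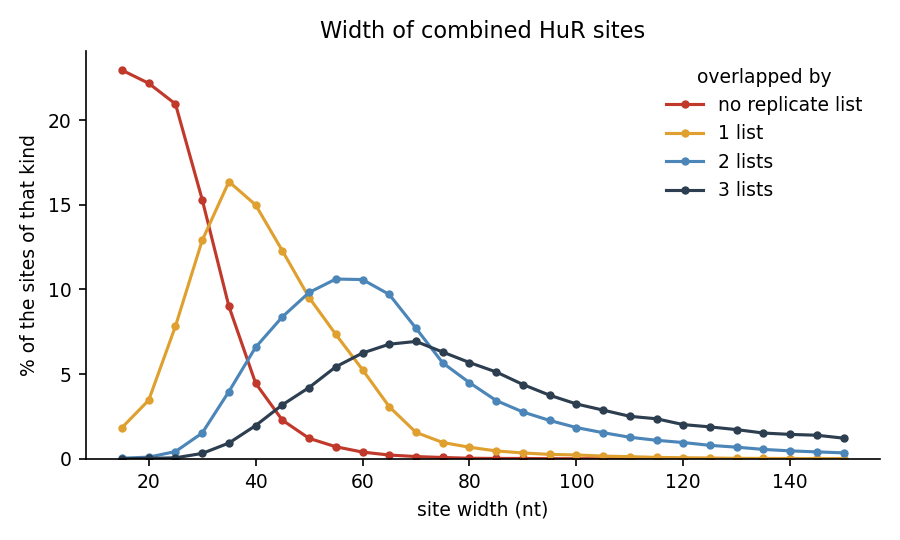
Share of combined sites (y axis, percent of each kind) at each width from 15 to 150 nt (x axis), for sites overlapped by 0, 1, 2 or 3 replicate lists. The curve of absent sites falls from its start at 15 nt, where it holds 22.9%, while the other curves peak at greater widths.

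Read the other way, narrow combined sites were mostly absent ones. Of all 15-nt sites in the combined list, 78.7% had no counterpart in a replicate list. The share was 65.4% at 20 nt, 43.6% at 25 nt, 24.4% at 30 nt and 5.87% at 40 nt. From 80 nt upwards it was 0.0577%. Width bears on the rule itself, since a wide interval has more bases with which to meet another, and its part in this gradient was not tested.

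The LOD scores of absent sites fell into a low and a high range with fewer sites between them. The median was 3.12 (quartiles 1.04 and 4.19), against 5.04, 7.76 and 11.2 for sites in 1, 2 and 3 lists. A first group lay near the threshold, with 10214 absent sites at a LOD of 0 to 0.5 and 7509 at 0.5 to 1. Numbers then fell to 1475 between 2.5 and 3, and rose in the next range to 14835, between 3 and 3.5. Beyond that they declined steadily, to 687 between 7 and 8 and 90 above 8. In all, 26174 absent sites (36.2%) scored under 3 and 46096 (63.8%) scored 3 or more.

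The share of absent sites among all combined sites also rose again at a LOD of 3. It was 82.0% at a LOD of 0 to 0.5 and fell to 16.9% at 2.5 to 3. It then stood at 47.1% at 3 to 3.5, and fell to 12.4% at 4.5 to 5 and 1.06% at 7 to 8. Above 12, where 67752 combined sites lay, it was 0. The second rise was also present among sites of at most 25 nt, where absent sites made up 54.7% at a LOD of 2 to 3 and 70.7% at 3 to 4.

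**Figure D2:**
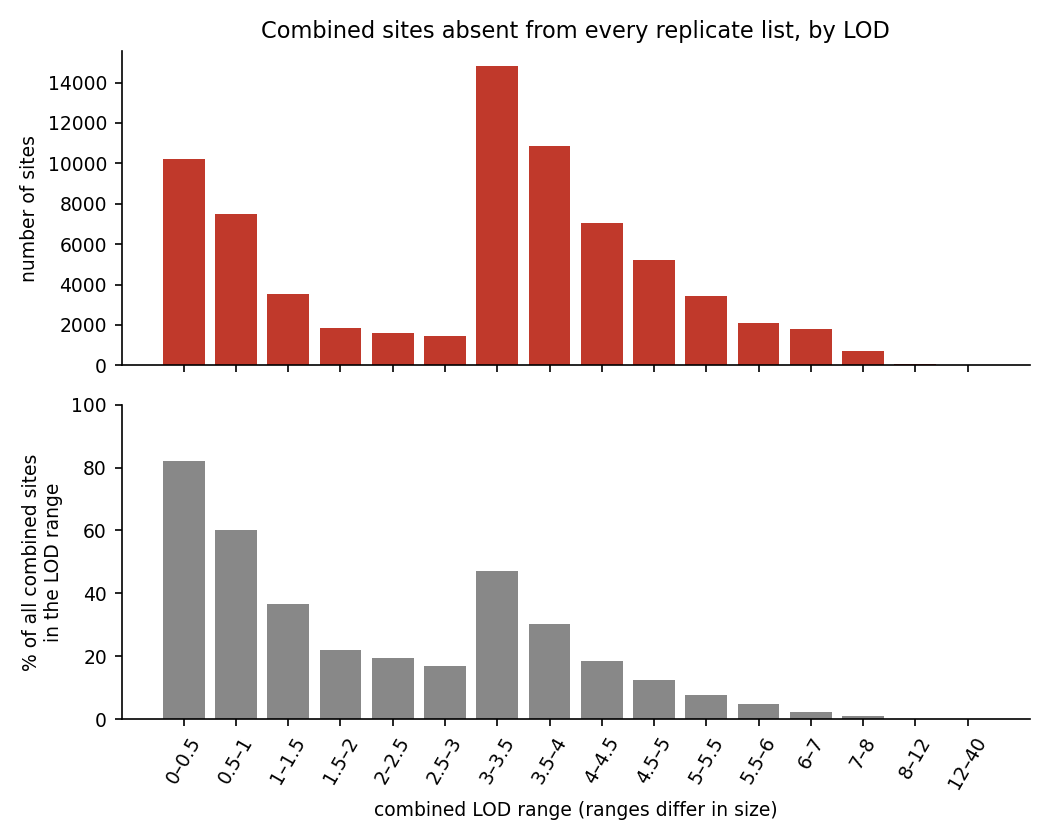
Upper panel: number of absent sites (y axis) by combined LOD range (x axis, ranges of unequal size). Lower panel: absent sites as a percentage of all combined sites in the range. Both panels dip between 1.5 and 3 and rise at 3 to 3.5, to 14835 sites and 47.1%.

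Many absent sites shared exactly the same score. The most frequent LOD in the whole combined list, 3.05253, occurred at 9379 sites, and 9378 of these were absent from every replicate. The next values by number of absent sites were 3.54110 with 3501 sites, 3.99481 with 2610, 4.41880 with 1692 and 4.81713 with 979. Of the 18162 combined sites at these 5 scores, 18160 were absent from the replicates, and they made up 25.1% of all absent sites. The spacing of the 5 scores narrowed from each to the next. Each replicate list had a most frequent score of its own, at 3.98383 with 16540 sites, 3.65425 with 32994 sites and 2.97468 with 31614 sites in replicates 1, 2 and 3.

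Sites at 3.05253 had a median width of 25 nt, and those at the other 4 levels a median of 20 nt. Across the combined list, 89 exact scores were shared by at least 100 sites. At 41 of them over 90% of the sites were absent ones, at 40 under 10% were, and 8 lay between.

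Absent sites lay outside recurrent sites but often in the same neighbourhood. A recurrent site is here a combined site that overlaps all 3 replicate lists. The median gap to the nearest recurrent site on the same strand was 1310 nt (quartiles 280 and 7385 nt). Within 100 nt there was a recurrent site for 13.1% of absent sites, within 1000 nt for 45.5% and within 10000 nt for 78.4%, while 4.96% had none within 100000 nt. The median for sites in 1 list was 1855 nt, for sites in 2 lists 905 nt and for recurrent sites to the next recurrent site 445 nt. Without replicate 1, where recurrent means both other lists, the median gap of absent sites was 450 nt.

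This distance differed sharply between the low and the high range of scores. Absent sites with a LOD under 3 had a median gap of 325 nt to a recurrent site (quartiles 100 and 1110 nt), and 73.3% had one within 1000 nt. With a LOD of 3 or more the median was 3070 nt (quartiles 750 and 14560 nt), and 29.8% had one within 1000 nt. The change came at 1 place on the scale: the median gap was 600 nt at a LOD of 2.5 to 3 and 4885 nt at 3 to 3.5. Sites with exactly 3.05253 made up 9378 of the 14835 absent sites at 3 to 3.5, and lay at a median of 7235 nt. At 3.5 to 4 the median was 2955 nt.

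The step in distance was shared by sites in 1 list but not by sites in 2 or 3. Sites in 1 replicate list also went from a median gap of 435 nt at a LOD of 2.5 to 3 to 2380 nt at 3 to 3.5. Their make-up differed between these 2 ranges: 2685 of 3973 were only in replicate 3 in the lower and 11769 of 13094 in the upper. Whether the step holds for the sites of each single replicate was not tested. Over the same ranges the median went from 200 to 215 nt for sites in 2 lists and from 140 to 150 nt for sites in 3. At 4 to 4.5 the medians were close, at 2465 nt for absent sites and 2460 nt for sites in 1 list.

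**Figure D3:**
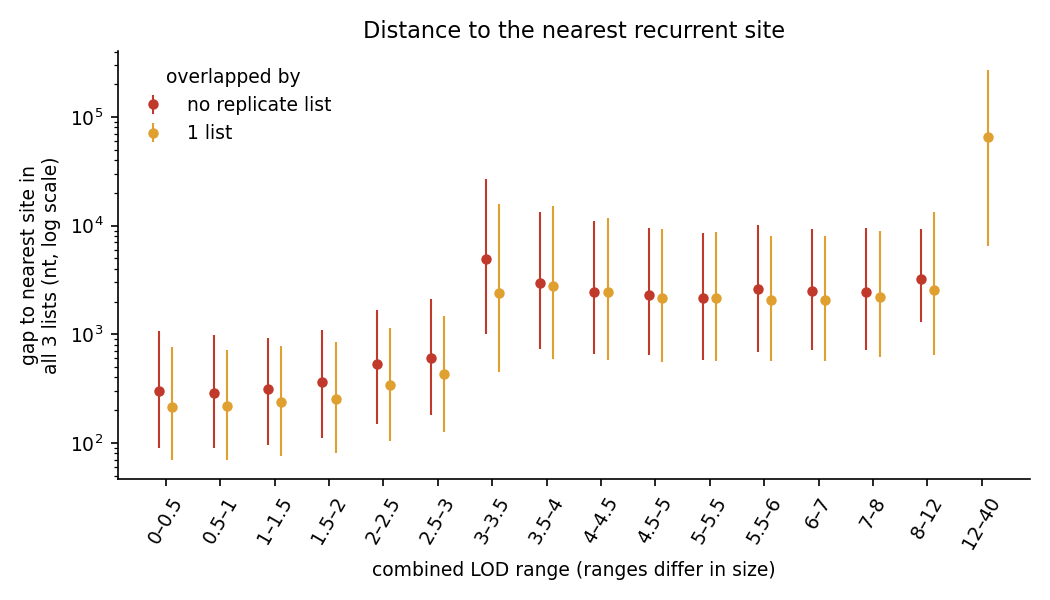
Gap in nt on the same strand to the nearest combined site found in all 3 replicate lists (y axis, log scale) by combined LOD range (x axis), for sites in no list and in 1 list. Points are medians and bars run from the lower to the upper quartile; both kinds move from under 1000 nt below a LOD of 3 to above 2000 nt from 3 on.

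Gaps to each replicate list by itself also differed between the 2 ranges. Every recurrent site overlaps a site of each list, so these gaps are not independent of the gap to recurrent sites. For absent sites with a LOD under 3, the nearest site lay at a median of 315 nt in replicate 1, 140 nt in replicate 2 and 135 nt in replicate 3. With a LOD of 3 or more the medians were 2565, 725 and 405 nt. The ratio of the medians was 8.14 for replicate 1, 5.18 for replicate 2 and 3.00 for replicate 3, with a mean of 5.44 ± 2.58 (SD, n = 3). When 1 list was left out of the rule, the median gaps to a recurrent site under and from a LOD of 3 were 170 and 855 nt without replicate 1, 285 and 1950 nt without replicate 2, and 310 and 2490 nt without replicate 3.

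Over all absent sites, a site of some replicate list was close by. The median gap to the nearest one was 225 nt, 18.8% of absent sites had one within 50 nt and 78.7% within 1000 nt. Measured to each list separately, the median was 1150 nt for replicate 1, 375 nt for replicate 2 and 265 nt for replicate 3, which averages 597 ± 482 nt (SD, n = 3). These gaps follow the order of the list sizes. Only 3344 absent sites (4.63%) were over 10 kb from every replicate site. Their median LOD was 3.05 and 14.1% scored under 3, against 54.1% of the 23556 absent sites within 100 nt of a replicate site.

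Crowded neighbourhoods had a smaller share of absent sites, and more of these scored low. In strand-specific windows of 10 kb with 1 combined site, that site was absent from the replicates in 17.9% of cases, and 14.0% of those absent sites scored under 3. In windows with 20 to 50 combined sites the absent share was 9.37%, and 56.8% of the absent sites scored under 3. The nearest combined neighbour was a recurrent site for 34.0% of low-scoring absent sites and for 14.98% of those with a LOD of 3 or more. Recurrent sites made up 22.9% of the combined list. Of 97331 windows with a combined site, 43653 (44.85%) held at least 1 absent site, and 27072 of these (62.0%) held 1. In 5176 windows all combined sites were absent ones, and 4861 of these windows had only 1 combined site.

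The windows richest in absent sites were also rich in recurrent ones. Chromosome 15:41590001-41600000 on the plus strand led with 14 absent sites among 46 combined sites, 18 of them recurrent. Replicate 1 had 27 sites there, and replicates 2 and 3 had 33 each. Chromosome 6:8080001-8090000 on the minus strand had 13 absent of 40 combined sites, and chromosome 6:32940001-32950000 on the plus strand 13 of 32. Chromosome 14:21670001-21680000 on the minus strand had 13 of 40, and chromosome 1:173860001-173870000 on the plus strand 12 of 45, a number that 4 further windows also reached. In the leading window all 14 absent sites scored under 3, with a median of 0.545, and 0 were kept by the p filter. Across the other 4 windows the medians ran from 0.356 to 0.881, and 1 absent site was kept, in the window on the plus strand of chromosome 6. Genes are not named, since no annotation of hg19 was used here.

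The authors' second combined list, limited by its name at p 0.05, held few of the absent sites. An interval of that list was present in 7546 of the 72270, or 10.4% (95% Wilson interval 10.2 to 10.7, counting error only), against 52.3% of all combined sites. The share was 24.2% for sites in 1 list, 66.6% for sites in 2 and 98.1% for sites in 3. Absent sites that were kept changed less in outline than the other kept sites: 74.4% had both ends unchanged, against 31.0%, 13.4% and 12.7% of kept sites in 1, 2 and 3 lists. The smallest width in both lists is 15 nt, so a narrow site can lose few bases. The part of width in this difference was not tested. Of the 5616 kept with unchanged ends, 5581 (99.4%) carried the same score in both lists to within 0.001. Kept and removed absent sites had the same median width, 25 nt, but a median LOD of 5.59 against 3.05.

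The order was the same under a LOD of 3 and over 3 to 5 as a whole, and from 5 up it was different. Under a LOD of 3, the filter kept 45 of 26174 absent sites (0.172%), against 1.45% of sites in 1 list and 16.2% of sites in 2. At 3 to 5 it kept 4.19%, against 5.25% and 39.8%. At 4.5 to 5 alone the filter kept 22.2% of absent sites, 8.87% of sites in 1 list and 42.7% of sites in 2. At 5 or more it kept 5908 of 8121, or 72.7% (Wilson interval 71.8 to 73.7), against 43.1% (42.9 to 43.4) of sites in 1 list and 70.4% of sites in 2. The rise was steep, from 3.64% at 4 to 4.5 to 22.2% at 4.5 to 5, 49.2% at 5 to 5.5 and 88.6% at 5.5 to 6. In that last range 36.1% of sites in 1 list and 33.4% of sites in 2 were kept, and 94.4% of sites in 3.

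**Figure D4:**
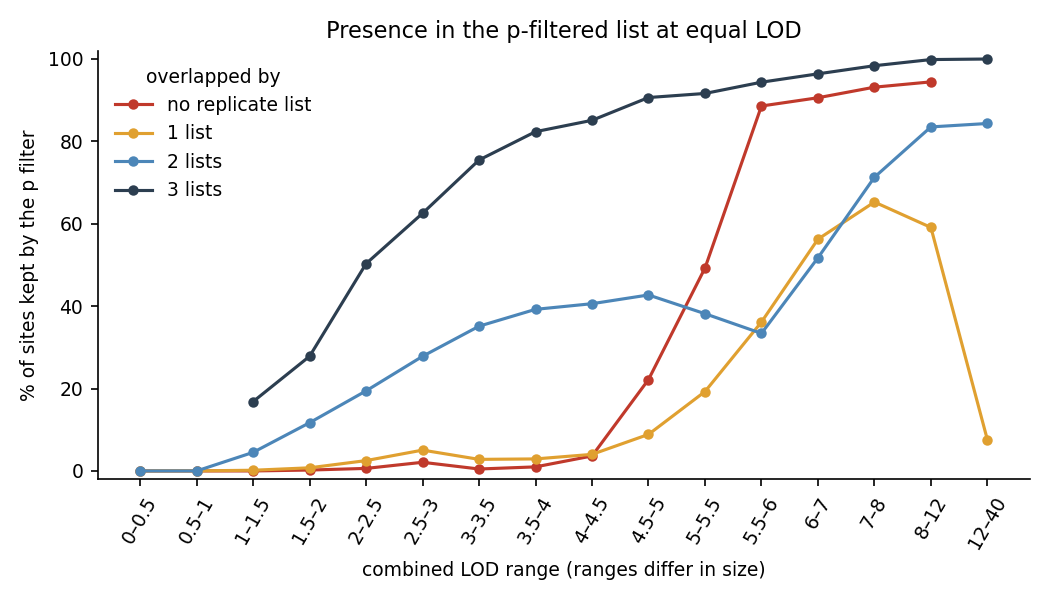
Percentage of combined sites with an interval in the p-filtered list (y axis) by combined LOD range (x axis), for sites in 0, 1, 2 or 3 replicate lists; ranges with under 20 sites are left out. Absent sites cross above the sites in 1 and in 2 lists between a LOD of 4.5 and 6, where they reach 88.6%.

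The difference was also present at equal width. In cells of 5 nt of width by 1 unit of LOD, with at least 20 sites of each kind, absent sites with a LOD of 5 or more were kept in 72.6% of cases and sites in 1 list in 39.1%. The difference was 33.5 percentage points (95% interval 32.3 to 34.7, counting error only), and absent sites were higher in 22 of 22 cells. Against sites found only in replicate 1, 2 or 3 it was 59.6, 32.8 and 30.1 points, a mean of 40.8 ± 16.3 (SD, n = 3). Against sites in 2 lists it was 42.2 points, with absent sites higher in 16 of 16 cells. Those cells held 5899 of the 8121 absent sites but only 17393 of the 179043 sites in 2 lists. Of the sites in 2 lists there, 31.0% were kept at the widths of absent sites, against 70.4% of all those with a LOD of 5 or more. Under a LOD of 5 the difference was 1.23 points against sites in 1 list (95% interval 1.08 to 1.38, counting error only). Absent sites were higher in 14 and lower in 22 of 51 cells. Against sites found only in replicate 1, 2 or 3 the difference was -0.752, 0.363 and 1.29 points there, a mean of 0.301 ± 1.02 (SD, n = 3), so its sign varied. Against sites in 2 lists it was -11.8 points, with absent sites higher in 0 of 42 cells. In both ranges the 3 single-replicate comparisons use largely the same absent sites, so their SD describes differences among the compared sites. The intervals for kept shares and their differences, here and above, treat sites as independent. Sites with the same exact score were mostly kept or removed together, as described below, so these intervals are too narrow.

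That excess depends on what counts as absent. With replicate 1 left out of the rule, 62.9% of absent sites and 45.5% of sites in 1 remaining list were kept at a LOD of 5 or more. Without replicate 2 the values were 55.9% and 59.8%, and without replicate 3 they were 43.8% and 67.4%, so the direction turned. Leaving out a list moves its own single-list sites into the absent group, which then held 118878 and 257815 sites.

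Absent sites with the same exact score were mostly kept or removed together by the p filter. Of 365 exact scores shared by at least 10 absent sites, 294 had every absent site removed, 62 had every one kept and 9 were mixed. A single threshold on the LOD would also give such counts, but the filter was not one. All 373 absent sites at 4.85471 were kept, whereas all 217 at 4.89208 and all 569 at 5.19303 were removed, and all 330 at 5.22858 were kept. At the 5 most frequent scores, 3.05253 to 4.81713, 0 of 18160 were kept. For sites in 1 list, 44 of 827 such scores were mixed.

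The highest-scoring absent sites were of the smallest width and came partly in pairs. Chromosome 3:27179996-27180010 and chromosome 3:27183026-27183040, both on the minus strand and 3015 nt apart, had LOD scores of 10.5 and 10.5. Each was the other's nearest combined site, and the closest replicate site lay 27.8 and 26.7 kb away. Chromosome 17:36556781-36556795 and 17:36559126-36559140 on the minus strand both scored 9.23, with a replicate 3 site at 2170 and 125 nt and sites of the opposite strand at 70 and 95 nt. Another, on the plus strand of chromosome 8, scored 9.20. These 5 are all 15 nt wide, lie over 130 kb from a recurrent site, and are the only absent sites with a LOD above 9. The p filter removed each of them, while it kept 36.1% of the 2680 sites in 1 list and 85.1% of the 53206 sites in 2 lists above 9. With 5 sites, the Wilson interval of the absent share kept runs from 0 to 43.4%. Only 13 of those sites in 1 list and 8 of those in 2 lists were 15 nt wide. The comparison is not at equal width.

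Just below that score the filter kept every absent site, 85 of 85 with a LOD of 8 to 9. The highest was chromosome 1:93070741-93070755 on the minus strand with 8.58. It was followed by chromosome 3:98594246-98594260 with 8.51 and chromosome 3:53110981-53110995 with 8.46, both on the minus strand. Chromosome 1:203781626-203781640 on the plus strand had 8.42, and chromosome 1:78048321-78048345 on the minus strand also had 8.42. A replicate site lay within 500 nt of each, at gaps of 220, 140, 155, 485 and 100 nt in that order, and the filter left their ends unchanged.

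The widest absent sites were the reverse of these. Chromosome 2:26358556-26358705 on the plus strand had 150 nt and a LOD of 0.698, with a recurrent site 20 nt away. Chromosome 6:52868921-52869055 on the minus strand had 135 nt and 0.706. Chromosome 6:138412146-138412275 on the minus strand had 130 nt and 0.224. On the plus strand, chromosome 10:98723211-98723340 had 130 nt with a LOD of 0.596 and chromosome 5:69745451-69745570 had 120 nt with 0.648. All 5 scored under 1, lay 20 to 295 nt from a recurrent site and were removed by the filter. More widely, 92.7% of the 82 absent sites of at least 80 nt scored under 3. The share was 39.6% at 15 nt, 32.5% at 20 nt and lowest, 29.1%, at 25 nt.

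The absent sites farthest from any replicate site all scored between 3 and 4. Chromosome 13:64138906-64138930 on the plus strand was 2738.3 kb from the nearest one. Chromosome Y:4460576-4460600 followed at 1613.9 kb, chromosome 4:33719116-33719140 at 1600.8 kb, chromosome X:127227331-127227365 at 1449.7 kb and chromosome Y:8449221-8449240 at 1287.7 kb, all on the plus strand. Of these 5, 4 had the score 3.05253 and 1 had 3.99481, and none was kept. Whether reads on chromosome Y were placed correctly was not tested.

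Absent sites were spread over chromosomes much as combined sites were. Among the numbered chromosomes their share of the combined sites ran from 9.74% on chromosome 21 to 11.8% on chromosome 4, with a median of 10.9%. The next highest were chromosome 13 with 11.7% and chromosome 9 with 11.6%, and the next lowest chromosome 17 with 10.2% and chromosome 6 with 10.5%. The difference between chromosomes 4 and 21 was 2.01 percentage points. These 2 were taken as the highest and the lowest, so no interval is given for their difference. It was 8.74 points when replicate 3 was left out. Chromosome X had 12.1% (2594 of 21423) and chromosome Y 12.6% (57 of 453, Wilson interval 9.84 to 16.0). Chromosome Y held 7.63 combined sites per Mb, against 138 on X. Whether the reads on Y were placed correctly was not tested, so its values may not describe sites on that chromosome.

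**Figure D5:**
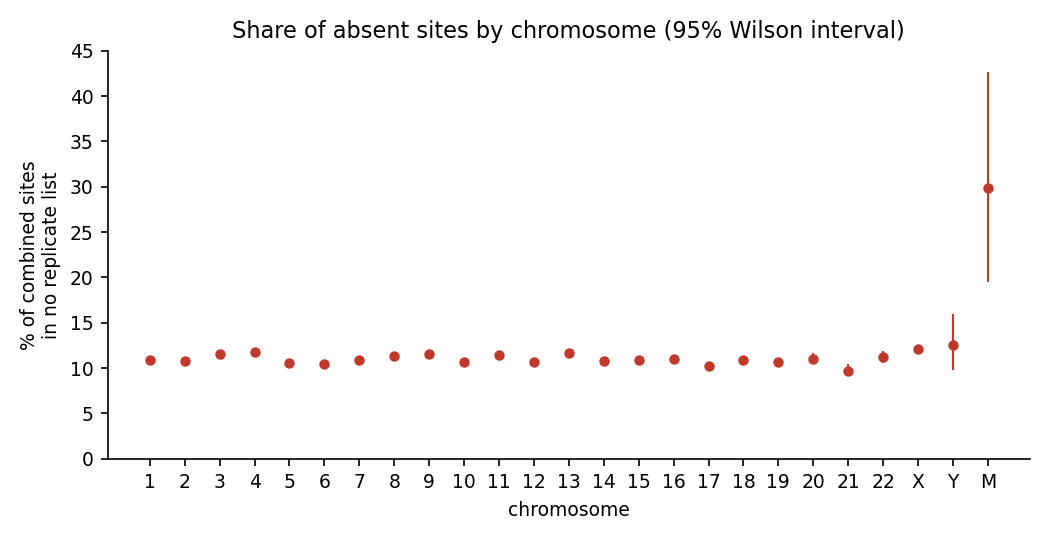
Absent sites as a percentage of the combined sites of each chromosome (y axis; points with 95% Wilson intervals for counting error) for chromosomes 1 to 22, X, Y and M (x axis). The numbered chromosomes lie between 9.74% and 11.8%, and the mitochondrial genome stands at 29.8% with a wide interval.

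The share of low scores among absent sites also varied between the numbered chromosomes. On chromosome 19, 49.1% of absent sites scored under 3, and on chromosome 17 44.8% did, against 28.7% on chromosome 4 and 29.6% on chromosome 13. Chromosomes with a larger share of recurrent sites had more low-scoring absent sites. Across the 22 numbered chromosomes, the recurrent share and the share under 3 had a Pearson r of 0.953 and a Spearman rho of 0.9503. With the overall absent share, r was -0.711 and rho -0.713, but the recurrent and absent shares are parts of the same total and not independent. All chromosomes share the same libraries, so these values describe the lists only. Among the numbered chromosomes, the median gap to a recurrent site was shortest on chromosome 17, at 800 nt, and longest on chromosome 4, at 2345 nt. It was 1350 nt on X, 16575 nt on Y and 425 nt on the mitochondrial genome. The share kept by the p filter ran from 8.72% on chromosome 19 to 12.7% on chromosome 22, and was 9.44% on X and 15.8% on Y (9 of 57 sites).

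The mitochondrial genome had the largest share of absent sites, 17 of 57 or 29.8% (Wilson interval 19.5 to 42.7). Its transcripts are made inside the organelle, from both strands. All 17 scored under 1, from 0.0853 to 0.928 with a median of 0.400, while the other 40 mitochondrial sites had a median of 2.24. Their widths ran from 15 to 65 nt, with 11 on the plus and 6 on the minus strand. The p filter kept 0 of 17, which by count alone allows a kept share of up to 17.6%. Among all absent sites it also kept 0% at a LOD of 0 to 0.5 and at 0.5 to 1, and the lowest kept score was 1.61. Of all combined sites in these 2 ranges, 82.0% and 60.2% were absent ones. The part of score in the mitochondrial shares was not tested.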

How the data were processed

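HuR sites were taken from the lists of the 3 HuR replicates and from 2 lists of the replicates combined. The build is hg19 (GRCh37), and the tools named are TopHat2 2.0.8 and cutadapt 1.0, per the submitters' processing notes. The deposited lists give the authors' LOD score per interval, and no source used here states how either was computed. Per the names of the deposited lists, the combined lists cover all HuR replicates, scores are above 0 and 1 combined list was limited at p 0.05.

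Overlaps and gaps on the same strand were computed in Python 3.11.15 with numpy 2.4.6, pandas 2.3.3 and scipy 1.17.1, and bedtools 2.31.1 gave the same 72270 absent and 7546 kept sites. A gap is the number of bases between 2 sites. Kept means an overlap of at least 1 nt with the p-filtered list. On 658853 simulated sites, 0 were wrongly classed, and a planted difference of 10 points at equal width and LOD came back as 9.93. Coordinates are 1-based.

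The sites and lists were chosen with earlier results of these data known. The LOD ranges split at 3, 5 and 9, the repeated scores, and the crowding classes were chosen after seeing the values. The rule for named sites takes the 10 highest LOD scores, the 5 widest sites, the 5 highest kept, the 5 farthest from a replicate site, and the 5 windows and outer 3 chromosomes on each side. Planned work on genes, transcript regions and sequence was not run, because no hg19 genome or annotation was used here.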

Additional observations from a re-analysis of the deposited data

How the results depend on the processing

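Recomputing 8 results gave 47 alternative values, of which 3 reversed, 25 moved beyond a tolerance and 19 did not. The tolerance was a ratio of 1.5 for the number of sites, the SD of the replicates' median widths for width, and otherwise a 95% interval for counting error, which is narrow at these numbers. Counting a match on either strand, within 50 nt, with 50% of the shorter interval or with replicate LOD above 1 left the number between 58658 and 86022. With combined LOD above 1, the number was 54547, the median LOD was 3.58, the gap 2205 nt and the kept share 13.8%. With recurrence in at least 2 lists the gap was 430 nt. Without each replicate in turn, the number ranged from 78445 to 257815, the width from 25 to 35 nt, the LOD from 3.17 to 4.57, the gap from 450 to 1875 nt, the kept share from 11.6% to 19.5% and the difference between chromosomes 4 and 21 from 1.32 to 8.74 points. The highest number, 257815, came without replicate 3, the list with the most sites. At a LOD of 5 or more, the kept share of absent sites minus that of sites in 1 list was 29.6 points, and ranged from -23.6 to 17.4 without each replicate, with -3.96 without replicate 2 and -23.6 without replicate 3. Over all scores at equal width and LOD the difference was 4.83 points. It was 4.19 in cells of 10 nt by 2 LOD, and -5.20 against sites in 2 lists. In alternatives chosen after seeing the data it was 4.44 in cells of 5 nt by 0.25 LOD, 3.93 at any width, and 5.03, 3.97 and 4.49 against sites only in replicate 1, 2 or 3. The causes were not tested. Read depth is not known, which limits what a site missing from a replicate list shows. No paired analysis was possible because only the HuR group has lists here and no test between groups was made.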

Other observations

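The p-filtered list held 7914 intervals that overlapped no replicate site, 2.12% of its 373845. Of these, 7546 lay in absent sites, 1 in each kept site, and 368 lay in combined sites that do overlap a replicate site elsewhere along their length. Of the absent sites, 495 (0.685%) overlapped a replicate site on the opposite strand, against 0.704% of sites in 1 list, 0.562% of sites in 2 and 1.30% of sites in 3. The filter kept 14 of these 495, against 10.4% of all absent sites and 52.3% of all combined sites. The plus strand carried 51.2% of the absent sites.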
